A study of Homo sapiens with 6 samples.

Results

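The SOX factors described here are 10 genes, SOX2, SOX3, SOX4, SOX8, SOX9, SOX11, SOX12, SOX13, SOX15 and SOX21, taken by name from a table of read counts that holds 48183 gene names. Each of the 10 names has 1 Ensembl identifier in that table, and all 10 passed the filter on low counts. The counts come from 6 bulk RNA-seq libraries of human embryonic stem cells (hESCs), 4 naive and 2 primed. The cells carry the EOS reporter, a transgene driven by an enhancer of the pluripotency gene Oct4 and used to spot naive cells, and the sample labels give the line as H1 while the study's text names it H9. The primed libraries are 1 each of the H1-EOS line and of the CA-p38 H1-EOS line, neither induced to the naive state. The CA-p38 line holds a doxycycline-inducible, constitutively active form of the stress kinase p38. When that line was made, doxycycline was given to switch on its mCherry marker, and mCherry-positive cells were sorted. The naive libraries are 1 of H1-EOS cells induced with VPA, an inhibitor of histone deacetylases, 1 of CA-p38 H1-EOS cells induced with doxycycline, and 2 of H1-EOS cells induced with AICAR, an activator of the energy sensor AMPK, called AICAR 1 and AICAR 2 here. Primed cells were kept on Matrigel in StemFit AK02N. After induction all naive cells were kept in PXGL medium and were sorted for the surface antigens CD75 and SUSD2, so that state, medium and the sort cannot be told apart. The labels give mouse embryonic fibroblast feeders for naive culture, while the study's text also describes feeder-free PXGL for CA-p38-induced cells, and which of the sequenced naive cells were grown with feeders is not given per library. AICAR and doxycycline were given in PXGL, and VPA in a medium with PD0325901 and LIF.

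SOX proteins bind DNA through an HMG box, a domain that sits in the minor groove and bends the double helix, and they usually work with a partner factor. Members fall into subgroups by the sequence of that box. SOX2 and SOX3 are the SOXB1 activators, SOX21 is a SOXB2 repressor, SOX4, SOX11 and SOX12 are the SOXC factors of progenitors and young neurons, SOX13 is a SOXD factor without an activation domain of its own, SOX8 and SOX9 are SOXE factors of cartilage, gonad and neural crest, and SOX15 is the lone SOXG factor. In pluripotent cells SOX2 is bound next to OCT4, the product of POU5F1, on composite elements near many genes of the pluripotency network.

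Total counts ran from 46823699 to 54277064 per library, where 3 counts correspond to 0.0553 to 0.0641 units of counts scaled to library size (CPM). All 8 naive markers, which included DPPA5, ALPG, TFCP2L1 and SUSD2, were called higher in naive libraries and summed to 5069 to 5992 CPM there against 8.51 and 12.3 CPM in primed ones. All 6 primed markers were called lower, among them OTX2, ZIC2, SFRP2 and DUSP6. SUSD2 was part of the sort. Nothing in the labels says that libraries of a state came from separate derivations other than the inductions named above, so the tests measure the spread between these libraries.

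Promoter sequence was at hand in RefSeq (GRCh38.p14) for 6 of the 10 genes, SOX2, SOX3, SOX4, SOX12, SOX13 and SOX21. The 200 bases before the transcript start are shown for 4 genes that fell in naive cells by very different amounts, the SOXB1 genes SOX2 and SOX3 and the SOXC genes SOX4 and SOX12, so that paralogs can be compared. Capitals mark the CCAAT box (CCAAT or its reverse ATTGG) and the octamer (ATGCAAAT or its reverse ATTTGCAT), the DNA word that POU factors such as OCT4 bind.
SOX2 (chr3:181711725-181711924, plus strand): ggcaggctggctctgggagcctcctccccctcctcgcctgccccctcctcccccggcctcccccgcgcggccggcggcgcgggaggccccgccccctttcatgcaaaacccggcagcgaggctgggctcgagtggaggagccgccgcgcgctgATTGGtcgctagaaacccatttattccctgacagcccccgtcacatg
SOX3 (chrX:140505070-140505269, minus strand): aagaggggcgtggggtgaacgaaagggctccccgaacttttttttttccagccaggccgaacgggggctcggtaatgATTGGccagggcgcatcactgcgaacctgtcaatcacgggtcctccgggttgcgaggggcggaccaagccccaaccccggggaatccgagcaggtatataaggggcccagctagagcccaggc
SOX4 (chr6:21593551-21593750, plus strand): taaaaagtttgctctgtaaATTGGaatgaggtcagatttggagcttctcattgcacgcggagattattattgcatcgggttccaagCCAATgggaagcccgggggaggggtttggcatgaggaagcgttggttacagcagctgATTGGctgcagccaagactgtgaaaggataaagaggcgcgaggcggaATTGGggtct
SOX12 (chr20:325352-325551, plus strand): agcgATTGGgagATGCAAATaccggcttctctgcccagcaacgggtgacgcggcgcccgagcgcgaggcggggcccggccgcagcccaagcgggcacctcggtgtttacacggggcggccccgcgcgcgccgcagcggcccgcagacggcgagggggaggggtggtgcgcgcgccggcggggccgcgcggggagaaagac
Within 250 bases before the start, a CCAAT box on either strand was present in 5 of the 6 SOX promoters and in 32% of 35116 RefSeq promoters. SOX4 had 4 such boxes, at 181, 114, 57 and 10 bases before the start. SOX2 had 1 at 47 bases, SOX3 1 at 123 bases, SOX21 1 at 214 bases and SOX12 1 at 196 bases, and SOX13 had none. The octamer was present in 1 of the 6, SOX12, where it began 188 bases before the start and 8 bases downstream of the first base of its CCAAT box, and in 1.63% of all promoters. The core of the SOX site (ACAAT or ATTGT) was in 0 of the 6 and in 24.6% of all promoters. Among these 6 genes, CCAAT boxes were found both before SOX4, whose RNA differed least among the members called, and before SOX3, whose RNA differed most.

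**Figure D1:**
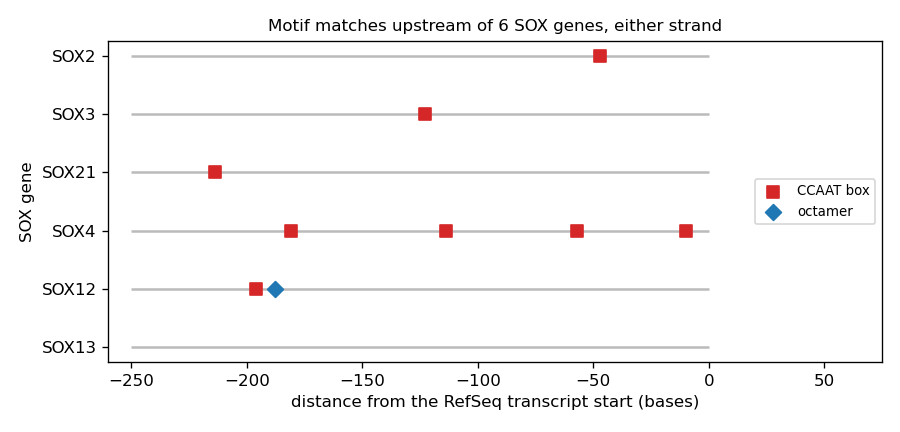
Matches to the CCAAT box (squares) and the octamer (diamond) on either strand within 250 bases before the RefSeq transcript start of 6 SOX genes. The x axis is the distance from the start in bases, and each grey line is the stretch searched. SOX4 holds 4 CCAAT boxes, SOX12 holds the octamer, and SOX13 holds neither motif.

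Comparison of naive with primed hESCs asked which SOX genes the naive state uses. SOX15 rose 84.4-fold and was the only member called higher, while 6 members, SOX2, SOX3, SOX4, SOX11, SOX12 and SOX13, were called lower, by 1.44-fold for SOX4 to 70.6-fold for SOX3. SOX8, SOX9 and SOX21 did not pass the test. In bulk RNA, fewer cells that express a gene and less RNA per cell cannot be told apart. Over all 26497 genes tested, 53.1% were called, 26% higher and 27% lower, so that 1 higher and 6 lower of 10 stand against those shares. The median log2 fold change of the members was -0.80 and that of all genes tested 0.11. Every naive library lay below both primed libraries for 7 members and above both for 1, SOX15. Across all genes 65.0% showed no overlap, 32.1% below and 32.9% above. Of the 7 members called, 5 changed at least 2-fold, 4 of them downward, and 35.3% of all genes were called with such a size.

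**Figure D2:**
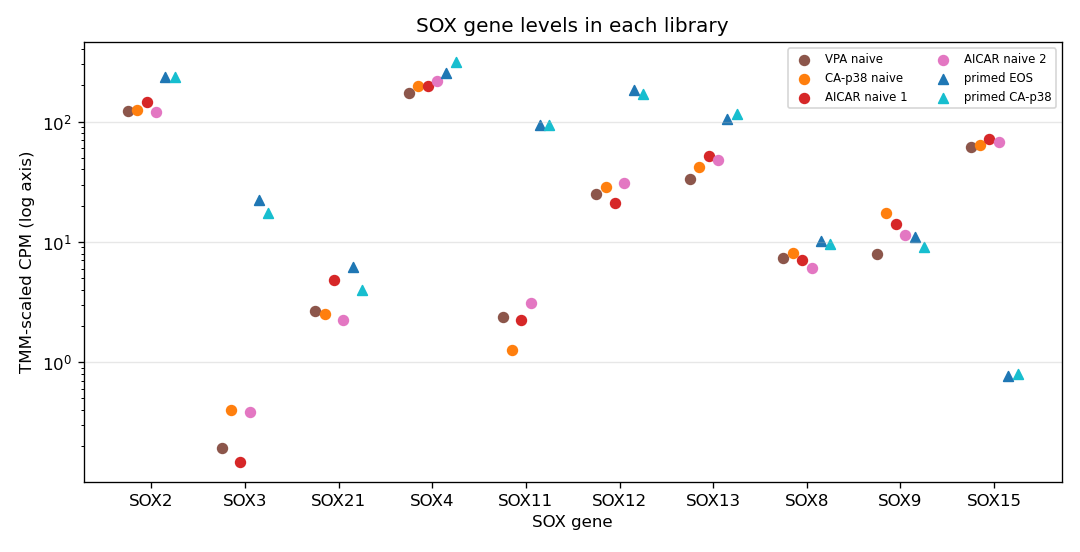
Level of each SOX gene in each of the 6 libraries, as TMM-scaled CPM on a log axis (circles naive, triangles primed). SOX15 lies between 61.3 and 71.9 CPM in naive libraries and below 1 CPM in primed ones, and SOX3 and SOX11 show the opposite order.

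**Figure D3:**
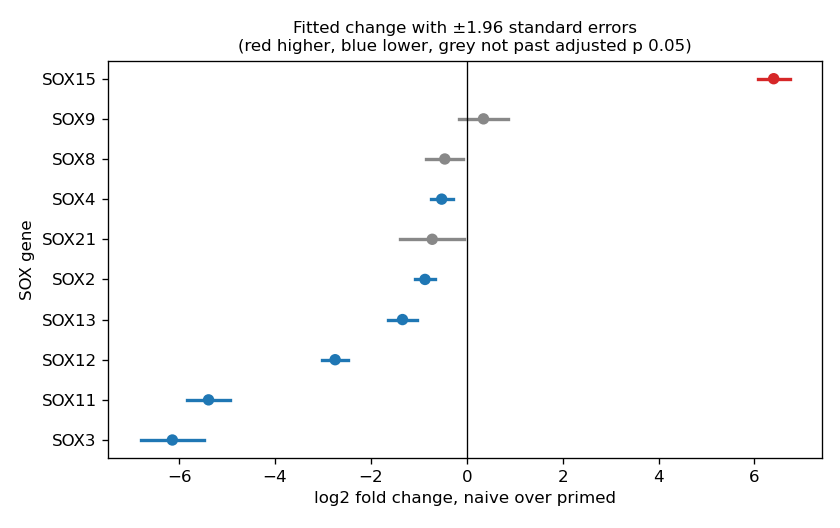
Fitted log2 fold change of each SOX gene, naive over primed (points), with an approximate 95% interval from its standard error (lines). The intervals use the normal quantile and are too narrow for so few libraries. SOX15 is the member called higher, at 6.40, 6 members are called lower, down to -6.14 for SOX3, and SOX8, SOX9 and SOX21 (grey) did not pass the adjusted threshold.

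SOX15, which can bind DNA together with OCT4 in mouse stem cells and is also known from muscle progenitors and trophoblast, is encoded by ENSG00000129194 at chr17:7588178-7590094 on the minus strand (GRCh38), with 2 exons. Its level was 61.3 CPM in VPA, 64.1 CPM in CA-p38, 71.9 CPM in AICAR 1 and 67.8 CPM in AICAR 2, whereas primed EOS had 0.768 CPM and primed CA-p38 had 0.797 CPM. All naive libraries were high and both primed libraries were low, with 38 and 39 counts. These primed counts are few, though above the floor of 3 counts. The log2 fold change was 6.40 ± 0.17 (SE; edgeR, adjusted p = 3.65e-11). Over 16 alternative settings it stayed between 6.35 and 6.50. SOX15 lies inside MPDU1, a gene of protein glycosylation on the opposite strand, with 35 exonic bases in common. MPDU1 ran the other way, with 1006 to 1082 counts in naive and 1750 and 1847 in primed libraries, and the sources used here do not say if read strand entered the counting.

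SOX2, required for the epiblast and for self-renewal of pluripotent cells, is a gene of 1 exon (ENSG00000181449, chr3:181711925-181714436, plus strand). It stood at 123 CPM in VPA, 125 in CA-p38, 146 in AICAR 1 and 121 in AICAR 2, whereas primed EOS had 234 CPM and primed CA-p38 had 237 CPM. All 4 naive libraries lay below both primed ones. The log2 fold change was -0.87 ± 0.11 (SE; edgeR, adjusted p = 1.12e-05), a 1.83-fold lower level. POU5F1, the partner gene, had a log2 fold change of -0.12 ± 0.08 (SE; edgeR, adjusted p = 0.224), with an approximate 95% interval from -0.29 to 0.04. Counts of SOX2 per count of POU5F1 were therefore 7.56% to 9.50% in naive libraries and 13.7% and 14.4% in primed ones, a ratio within each library that no scaling between libraries can move. SOX2-OT, the noncoding transcript in whose intron SOX2 lies on the same strand, had a log2 fold change of -0.02 with an approximate interval from -0.37 to 0.34.

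SOX3, the X-linked relative of SOX2 used in the early neural plate, pituitary and gonad, lies at chrX:140502985-140505069 on the minus strand (ENSG00000134595, 1 exon). Primed EOS had 22.2 CPM of it and primed CA-p38 had 17.3 CPM, and it was at 0.191 CPM in VPA, 0.396 in CA-p38, 0.147 in AICAR 1 and 0.383 in AICAR 2. The naive values rest on 8 to 20 counts each and are above the floor of 3 counts. The log2 fold change was -6.14 ± 0.34 (SE; edgeR, adjusted p = 5.97e-09). Per kilobase of transcript, the SOX3 level was 8.78% and 11.4% of the SOX2 level in primed libraries and 0.122% to 0.383% in naive ones. SOX21, a repressor that counters SOXB1 factors in neural progenitors (ENSG00000125285, chr13:94709622-94712545, minus strand, 1 exon), had 2.66 CPM in VPA, 2.49 in CA-p38, 4.82 in AICAR 1 and 2.23 in AICAR 2, against 6.12 and 3.95 CPM in the primed EOS and CA-p38 lines. AICAR 1 lay between the primed libraries, so the states overlapped, and the log2 fold change of -0.72 ± 0.34 (SE; edgeR, adjusted p = 0.0882) did not pass. Single libraries moved this value in both directions, to -1.04 without AICAR 1 (edgeR, adjusted p = 0.0111) and to -0.38 without primed EOS (edgeR, adjusted p = 0.512).

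The 3 SOXC genes fell, by sizes that differed widely. SOX4 and SOX11 are best known for neuronal differentiation and organ growth, and SOX12 is the weakest activator of the subgroup. SOX11 (ENSG00000176887, chr2:5692384-5701385, plus strand, 1 exon) was at 93.6 and 93.9 CPM in the primed EOS and CA-p38 lines and at 2.35 CPM in VPA, 1.27 in CA-p38, 2.23 in AICAR 1 and 3.12 in AICAR 2. The primed values differed by less than 1 CPM and every naive value was far below them, with a log2 fold change of -5.39 ± 0.23 (SE; edgeR, adjusted p = 1.08e-09). SOX12 (ENSG00000177732, chr20:325552-330224, plus strand, 1 exon) had 183 and 171 CPM in the primed EOS and CA-p38 lines, and 24.9 CPM in VPA, 28.4 in CA-p38, 21.1 in AICAR 1 and 30.9 in AICAR 2. Its log2 fold change was -2.75 ± 0.14 (SE; edgeR, adjusted p = 3.9e-09), a 6.71-fold lower level. SOX4 (ENSG00000124766, chr6:21593751-21598619, plus strand, 1 exon) stayed abundant in both states, at 172 CPM in VPA, 199.6 in CA-p38, 197.0 in AICAR 1 and 219 in AICAR 2 against 255 and 311 CPM in the primed EOS and CA-p38 lines. Its naive values were all below the primed ones, by a log2 fold change of -0.52 ± 0.12 (SE; edgeR, adjusted p = 0.00202). With primed CA-p38 left out it was -0.37 and no longer passed (edgeR, adjusted p = 0.0515). Within a library, the SOX12 level per kilobase was 11.2% to 15.1% of the SOX4 level in naive and 74.6% and 57.2% in the primed EOS and CA-p38 lines.

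SOX13, a SOXD factor known from lymphocytes, arteries and the nervous system, spans 14 exons at chr1:204073115-204127743 on the plus strand (ENSG00000143842). Its level was 33.2 CPM in VPA, 41.6 in CA-p38, 51.5 in AICAR 1 and 48.2 in AICAR 2, and 106 and 115 CPM in the primed EOS and CA-p38 lines. All naive libraries were lower, by a log2 fold change of -1.34 ± 0.16 (SE; edgeR, adjusted p = 7.58e-06), or 2.53-fold.

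The SOXE genes showed no call in either direction. SOX8 (ENSG00000005513, chr16:981770-986979, plus strand) had 7.36 CPM in VPA, 8.14 in CA-p38, 7.10 in AICAR 1 and 6.06 in AICAR 2, and 10.1 and 9.55 CPM in the primed EOS and CA-p38 lines. Every naive value was below the primed ones, yet the log2 fold change of -0.46 ± 0.20 (SE; edgeR, adjusted p = 0.0665) did not pass, and DESeq2 on the same counts gave -0.51 with an adjusted p of 0.0275. SOX9 (ENSG00000125398, chr17:72121020-72126416, plus strand), the master factor of cartilage and testis, had 7.95 CPM in VPA, 17.4 in CA-p38, 14.2 in AICAR 1 and 11.4 in AICAR 2, and 10.9 and 9.08 CPM in the primed EOS and CA-p38 lines. Its naive libraries lay on both sides of the primed ones, with a log2 fold change of 0.35 and an approximate 95% interval from -0.17 to 0.86. SOX9-AS1, an antisense RNA that spans SOX9 without shared exons, was called higher in naive libraries, with 2.54 to 3.50 CPM against 0.586 and 1.59 CPM and a log2 fold change of 1.51 ± 0.38 (SE; edgeR, adjusted p = 0.00623). Of 5 overlapping or antisense transcripts named after SOX genes, 3 were tested, and SOX9-AS1 was the 1 called. Overlapping genes under other names were not in that list. ENSG00000286572, opposite SOX13, had 79 to 180 counts in naive and 36 and 63 in primed libraries. NRSN2-AS1, opposite SOX12, had 308 to 398 against 305 and 340. The noncoding genes that share exonic bases with SOX4 and SOX11 had at most 11 counts in any library.

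To compare levels between genes, CPM was divided by the length of the canonical transcript. In naive libraries SOX2, at 51.2 ± 4.59 CPM per kb (SD, n = 4), and SOX15, at 50.2 ± 3.49 CPM per kb, overlapped and stood above SOX4, at 40.4 CPM per kb. SOX13 (10.7), SOX12 (5.64), SOX9 (3.24), SOX8 (2.32), SOX21 (1.04), SOX11 (0.249) and SOX3 (0.134) followed in CPM per kb. Of these neighbours, the ranges of SOX9 and SOX8 and those of SOX11 and SOX3 overlapped. In primed libraries the order in CPM per kb was SOX2 (93.7), SOX4 (58.2), SOX12 (37.8), SOX13 (27.1), SOX11 (10.4), SOX3 (9.46), SOX8 (3.19), SOX9 (2.54), SOX21 (1.72) and SOX15 (0.593), and the ranges of SOX11 and SOX3 overlapped. SOX15 thus held the second place in the naive order by mean and the last place in the primed order. The orders rest on annotated lengths, and which transcript forms were expressed was not examined. In CPM without that division, the naive means were 197 for SOX4, 129 for SOX2 and 66.3 for SOX15.

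The 10 genes summed to 149.7, 163.6, 178.0 and 169.2 CPM per kb in VPA, CA-p38, AICAR 1 and AICAR 2, and to 240.3 and 249.1 CPM per kb in the primed EOS and CA-p38 lines. SOX15 made up 29.7% to 31.0% of the naive sum and 0.242% and 0.243% of the primed sum. SOX2 made up 28.6% to 32.6% of the naive and 37.8% and 38.8% of the primed sum. SOX4 kept a like share, 22.7% to 26.6% against 21.8% and 25.7%, while SOX12 went from 14.7% and 16.3% in primed to 2.54% to 3.91% in naive libraries. By subgroup, the SOXB1 sum was 51.3 CPM per kb in naive and 103 in primed libraries, the SOXC sum 46.3 and 106, and the SOXE sum 5.56 and 5.73. Within single libraries the SOX15 level per kilobase was 93.9% to 106% of the SOX2 level in naive cells and 0.625% and 0.641% in primed cells.

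**Figure D4:**
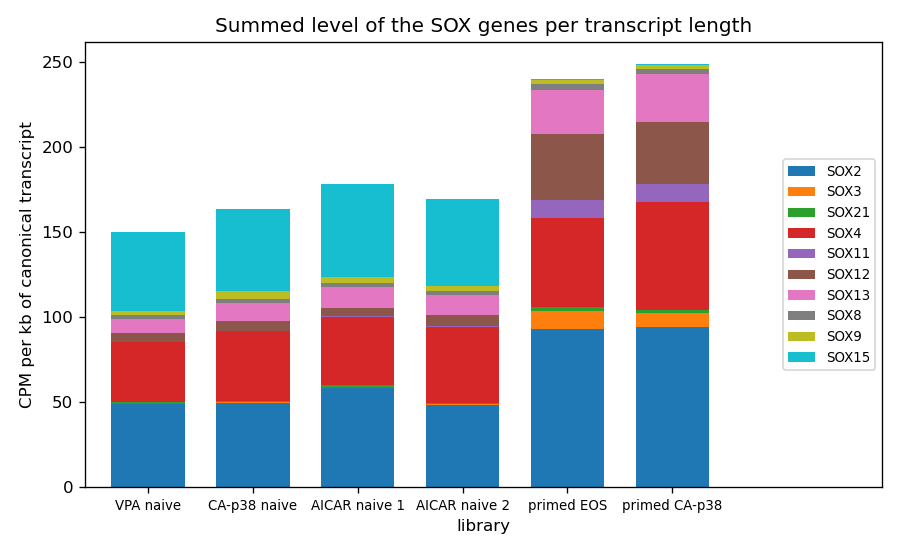
Summed level of the 10 SOX genes in each library, as CPM per kb of canonical transcript, stacked by gene from 0. The 4 naive sums lie between 149.7 and 178.0 and the 2 primed sums at 240.3 and 249.1 CPM per kb. SOX15 takes about as much of each naive bar as SOX2 and is hardly visible in the primed bars, where SOX12, SOX11 and SOX3 are seen instead.

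Next, each naive library was set against the primed library of its own line, with intervals that cover counting error only. SOX15 was higher by a log2 fold of 6.32 in VPA, 6.33 in CA-p38, 6.55 in AICAR 1 and 6.46 in AICAR 2, and these intervals overlapped. SOX2 was lower by a log2 fold of -0.93 in VPA, -0.93 in CA-p38, -0.68 in AICAR 1 and -0.95 in AICAR 2. SOX11 ranged from -6.21 in CA-p38 to -4.91 in AICAR 2. SOX9 was the 1 member that differed in sign between libraries, at -0.46 in VPA, 0.06 in AICAR 2, 0.38 in AICAR 1 and 0.94 in CA-p38.

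**Figure D5:**
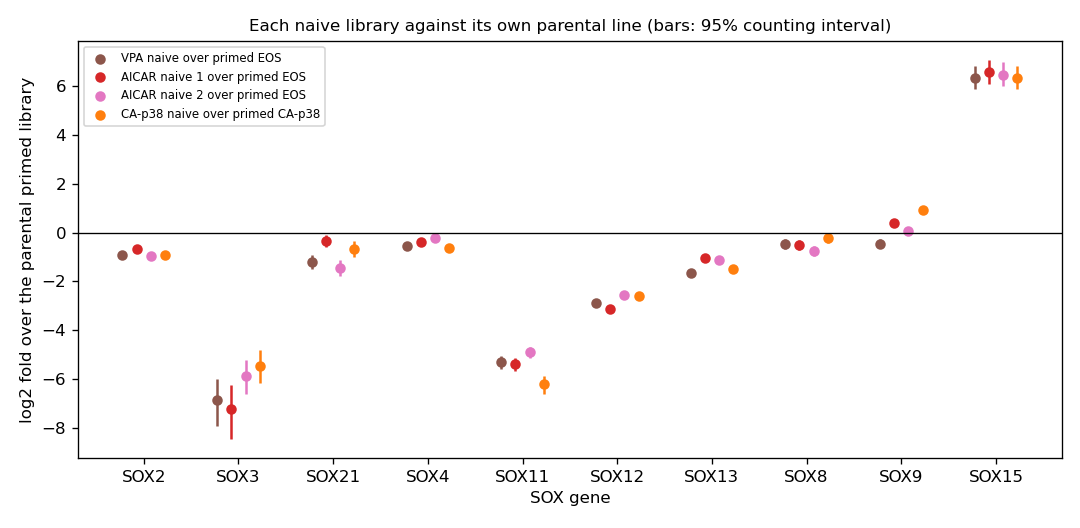
Log2 fold of each SOX gene in each naive library over the primed library of the same line, with 95% counting intervals (lines). SOX15 lies between 6.32 and 6.55 in the 4 libraries, whereas SOX9 runs from -0.46 in VPA to 0.94 in CA-p38.

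Differences between induction methods were tested among the 4 naive libraries, with VPA and CA-p38 at 1 library each and the spread taken from the 2 AICAR and the 2 primed libraries. The study gives the AICAR cells at consecutive passages and does not say if they came from separate inductions. The 2 primed libraries are of different lines, so the spread also holds any difference between those lines. CA-p38 is also the 1 naive library of its line, so that method and line cannot be told apart for it. By edgeR's quasi-likelihood test 0 members passed the adjusted threshold, as did 0% of all genes, and at an unadjusted p under 0.05 there were 3 members, SOX11, SOX13 and SOX9, beside 5.93% of all genes. SOX11 in CA-p38 differed from the AICAR libraries by a log2 value of -1.07 (edgeR, unadjusted p = 0.00633 over the methods, adjusted p = 0.580). SOX9 differed by 0.44 in CA-p38 and by -0.69 in VPA from the AICAR libraries (edgeR, adjusted p = 0.659), and SOX13 by -0.59 in VPA (edgeR, adjusted p = 0.681). Over all genes, median-ratio scaling called 15 and limma-voom 4, with 0 members in both.

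Fibroblast markers were read beside SOX9, since the labels give mouse feeders for naive culture, although the sort for CD75 and SUSD2 selects against feeder cells. Reads were mapped to human transcripts, so mouse RNA is counted only where it aligns to them. Of 8 markers, 7 were tested, 0 were called higher and 3 lower in naive libraries (COL1A1, COL1A2 and POSTN). The shares over all genes tested were 26% higher and 27% lower. FAP had at most 2 counts in any library. Without a call, COL3A1, DCN and LUM had positive log2 fold changes (1.22, 0.87 and 2.15) and COL6A3 a negative one (-0.14). The 8 markers summed to 47.8 CPM in VPA, 77.2 in CA-p38, 38.3 in AICAR 1 and 56.6 in AICAR 2. In the primed EOS and CA-p38 lines they summed to 200.1 and 181 CPM. Primed cells were kept on Matrigel and had the higher sums, so the sum cannot be read as a measure of feeder RNA. CA-p38, the naive library with the highest SOX9, had the highest sum of the naive libraries and the highest COL1A1, COL3A1, DCN and LUM. It did not have the highest COL1A2 (25.7 CPM, against 30.5 in AICAR 2) or POSTN (0.139 against 0.161 CPM), and it had the lowest COL6A3 (4.41 CPM, against 6.12 to 7.47). Without CA-p38 the SOX9 log2 fold change was 0.14 (edgeR, adjusted p = 0.657). The part of fibroblast RNA in the SOX9 values was not tested.

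The remaining SOX genes were detected at low levels, and 9 were tested. Of these, 2 were called higher, 3 lower and 4 in neither direction, with a median log2 fold change of 0.36. These counts lie near the shares over all genes tested, of which 26% were called higher and 27% lower. SOX18, a factor of blood and lymph vessels, rose from 0.0606 and 0.204 CPM in primed to 2.05 to 4.09 CPM in naive libraries (log2 fold change 4.45 ± 0.54, SE; edgeR, adjusted p = 1.39e-05). SOX30, a germ cell factor, had 94 counts over the naive libraries and 3 over the primed ones, a 14.9-fold ratio with a 95% counting interval from 4.95 to 73.6. SOX17, a factor of endoderm and germ cells, fell from 1.56 and 4.87 CPM in the primed EOS and CA-p38 lines to 0.201 to 0.376 CPM (log2 fold change -3.50 ± 0.49, SE; edgeR, adjusted p = 3.57e-05). SOX5, the SOXD relative of SOX13, was also called lower (log2 fold change -2.10 ± 0.48, SE; edgeR, adjusted p = 0.00196). SOX14, the SOXB2 relative of SOX21, had 3 counts in naive libraries, all in AICAR 1, and 78 in primed ones, a ratio of 54.7 with an interval from 18.0 to 271. Neural SOX1 and neural crest SOX10 did not pass, with log2 fold changes of 0.36 and 0.37, nor did SOX6 at 1.0 and SOX7 at 0.04.

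Genes with a known OCT4-SOX2 element did not share a direction. Of 6 genes, 3 were called higher in naive libraries, 1 lower and 2 in neither direction, where 26% of all genes tested were called higher and 27% lower. FGF4, a growth factor of the epiblast whose enhancer is the classic OCT4-SOX2 site, rose by a log2 fold change of 9.21 ± 0.30 (SE; edgeR, adjusted p = 1.89e-10), from 0.286 and 1.03 CPM in primed to 369 to 434 CPM in naive libraries. UTF1, a chromatin factor of pluripotent cells, rose by 5.45 and NANOG by 1.33, whereas LEFTY1, an inhibitor of Nodal, fell, at -1.71 on the log2 scale. FBXO15 did not pass, at 0.39 on the log2 scale. These calls stand beside a SOX2 level that was 1.83-fold lower.

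POU genes, which encode the partner family, numbered 6 tested, with 2 called higher and 2 lower. Of all genes tested, 26% were called higher and 27% lower. POU3F1, also called OCT6 and known from the postimplantation epiblast, fell by a log2 fold change of -2.66 ± 0.18 (SE; edgeR, adjusted p = 5.28e-08), and POU2F1, the widely expressed OCT1, was lower by -1.09 on the same scale. POU3F3, a neural factor, rose by 2.89 from a low level, and POU4F1, a factor of sensory neurons, had 256 counts in naive and 1 in primed libraries, a 122-fold ratio with a wide interval that starts at 21.7.

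Cartilage genes that SOX9 is known to drive were counted beside it. Of 7 tested, 1 was called higher, 3 lower and 3 in neither direction, while SOX9 itself did not pass. COL2A1, the main collagen of cartilage, fell by a log2 fold change of -6.74 ± 0.33 (SE; edgeR, adjusted p = 1.8e-09), COL9A1 by -4.70 and COL9A2 by -2.62, and ACAN, the proteoglycan core of cartilage, rose by 1.98. Among 4 genes known as SOXC targets, not all of them neuronal, 3 were called lower and 1 higher. Over all genes tested, 27% were called lower and 26% higher. The SOXC members themselves were all called lower, and a link to these genes was not tested. DCX, a microtubule protein of migrating neurons, was at -4.59 on the log2 scale. STMN2 was at -3.98, with 2 to 4 counts in each naive library, and TEAD2, a Hippo pathway factor, at -1.0. TUBB3, a neuronal tubulin, was called higher at 0.52 (edgeR, adjusted p = 0.0026).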

How the data were processed

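Bulk RNA-seq of 4 naive and 2 primed hESC libraries was analysed, grouped by the sample labels. Per the methods and labels, the authors trimmed reads with Trim Galore 0.4.4 and cutadapt 1.15, mapped them with Bowtie2 2.2.5 to Ensembl GRCh38 release 100 cDNA and noncoding RNA, and deposited whole counts per gene identifier of alignments whose mapping quality was 1 or more, without normalization. Reads from the shared HMG box or from overlapping genes may be split between genes by such counting. The table's 23 columns of other studies and 26 spike-in features were not used. Total counts ran from 46823699 to 54277064, and intervals from counts cover counting error only.

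Identifiers that share a name were summed (61196 identifiers, 48183 names). The test of naive against primed libraries was that of edgeR 4.0.16 under R 4.3.3 (TMM scaling, filterByExpr by state, glmQLFit and glmQLFTest, no covariate), with Benjamini-Hochberg adjustment over 26497 genes and a threshold of 0.05. The common dispersion was 0.05634. Standard errors came from the same model. Intervals of fitted log2 fold changes used the normal quantile, so they are approximate and too narrow for so few libraries. A permutation of 4 against 2 libraries cannot go below 0.0667, so none was used for single genes. Positions and transcript lengths came from GENCODE release 44 (GRCh38), and promoters from RefSeq (GRCh38.p14). Log2 CPM values used a prior count of 0.5. Folds over a parental library used scaled counts without a prior count, with exact binomial intervals at 95%. Python 3.11.15 was used for the other steps.

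Alternatives were median-ratio scaling, library totals, DESeq2 1.42.0, limma-voom (limma 3.58.1), 2 other filters, identifiers fitted apart, a block for the parental line, the sum of both AICAR libraries and the omission of single libraries. Keeping clone-derived names apart was chosen after seeing the data. A state by line interaction, also added then, is not reported, because the CA-p38 line has 1 library in each state and its naive library alone has its induction. One marker list is not reported here. Members and gene lists were chosen with earlier results of these data known. All members are named, and from each list every called gene where at most 4 were called, otherwise the 2 highest and 2 lowest. Genes outside that rule, such as COL3A1, COL6A3, DCN, LUM and FAP, were chosen after their values were seen. The edgeR step was tested on simulated data.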

Additional observations from a re-analysis of the deposited data

Results flagged for a closer look

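Among the 4 naive libraries, AICAR 1 stood apart as the highest for SOX2, at 146 CPM against 121 to 125 CPM in the others, with a gap to the nearest library of 0.868 of the whole range. It also stood apart as the highest for SOX21, at 4.82 CPM against 2.23 to 2.66 CPM, with a gap of 0.837 of the range. Chance gives such a gap in about 1 of 20 groups, and 10 members were examined. SOX21-AS1, the antisense RNA across SOX21, was likewise highest in AICAR 1, with 209 counts against 99 to 127.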

How the results depend on the processing

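Of 159 fold changes of the members recomputed under the alternatives, 153 kept their direction and their side of the threshold, 6 changed side and 0 reversed. SOX21 passed with the AICAR libraries summed (-0.79, adjusted p = 0.0388) and without AICAR 1 (-1.04, adjusted p = 0.0111). SOX8 passed with median-ratio scaling (-0.51, adjusted p = 0.0462), DESeq2 (-0.51, adjusted p = 0.0275) and limma-voom (-0.46, adjusted p = 0.0497). SOX4 did not pass without primed CA-p38 (-0.37, adjusted p = 0.0515). The cause was not tested, apart from the fewer libraries. Members called lower numbered 5 to 7 and members called higher 1 under every alternative. SOX3 was not among the genes with at least 10 counts in every library. The primed mean of the summed CPM was 944.8, and 902.3 with library totals. Library totals moved the split of all calls from 6893 higher and 7165 lower to 7620 and 6498, with a median log2 fold change of 0.20 in place of 0.11. With the parental line as a replicate block, the split was 6514 and 6906, and no member's call changed. Leaving out 1 of 2 primed libraries assumes that the one left varies like the naive libraries. At these depths the primed SOX15 and naive SOX3 values rest on few counts, and the design is small, with 1 library for VPA and for CA-p38.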

Other observations

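SOX2, SOX15 and SOX3 were each compared with 12603 other genes that had a mean of 5 CPM or more. Over the 6 libraries, log2 CPM followed SOX2 most closely for NUP54, a nuclear pore protein (distance 0.0881). Next came ITPK1, an inositol phosphate kinase (0.10), and CTPS1, an enzyme of CTP synthesis (0.112). The distance is the Euclidean one between centred log2 values. SOX15 was followed most closely by DEPTOR, an inhibitor of mTOR (0.216), with 70.3 to 73.2 CPM in naive and 0.83 and 0.90 CPM in primed libraries, and then by the noncoding RNA PCAT14 (0.325) and ADAMTSL5 (0.332). SOX3 was followed by GPC4, a heparan sulphate proteoglycan (0.662), HEPH, a copper-dependent iron oxidase (0.692), and IGLON5, a neural adhesion protein (0.702). These are descriptions over 6 libraries in which most of the variation lies between the states.

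Of 5 neural crest markers tested, 1 was called higher in naive libraries (TFAP2B) and 2 lower (SNAI2 and NGFR). Of 6 endoderm markers, 2 were called higher (GATA4 and HNF4A) and 3 lower (SOX17, FOXA2 and PDGFRA). In primed EOS and primed CA-p38, TFAP2B had 0 and 1 counts and GATA4 0 and 46. SNAI2 had 0 to 9 counts in the naive libraries. The sizes of the changes in TFAP2B, GATA4 and SNAI2 are therefore uncertain. The shares over all genes tested, for these lists and the next, were 26% higher and 27% lower. Of 6 trophectoderm markers 5 were called higher and 0 lower. The calls ran from KRT7 (1.08 on the log2 scale) and HAND1 (4.0) to TFAP2A (7.04) and CDX2 (7.17). In primed EOS and primed CA-p38, HAND1 had 12 and 0 counts, TFAP2A 4 and 2, and CDX2 1 and 0. The sizes of these 3 changes are therefore uncertain, and CDX2 was at the floor of 3 counts or below in both primed libraries. GATA3 did not pass (0.86 on the log2 scale, edgeR, adjusted p = 0.393). The trophectoderm list summed to 25.2 to 26.7 CPM in naive and 3.90 and 5.38 CPM in primed libraries.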
